A study of Mus musculus with 8 samples.

Results

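Trimethylation of lysine 27 on histone H3 (H3K27me3) was mapped by chromatin immunoprecipitation and sequencing in EML_C1, a mouse blood progenitor cell line. The H3K27me3 landscape consisted of the peaks of the 2 libraries labelled with this antibody. It held 220455 peaks in replicate 1 and 178423 in replicate 2, or 398878 of the 866451 peaks of the series. Membership followed from the antibody label alone, so no measured value chose the peaks. The series further held 2 libraries each for Ezh2 and Runx1 and 2 input libraries, and its stated design was to map the mark and both proteins in these cells. Both H3K27me3 libraries came from cells labelled C57BL/6 at passage 4 to 5, grown with 200 ng/ml stem cell factor (mSCF) and fixed with 1% formaldehyde for 10 min. No mutation or treatment is given for them in the labels. Whether the replicates were grown as separate cultures is not stated in the labels, and the spread between them may be technical. EML cells are an immortalised line kept in culture, which limits them as a model of progenitors in bone marrow.

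H3K27me3 is set by Polycomb repressive complex 2, whose catalytic subunit is Ezh2 or Ezh1. The mark is typical of silent chromatin and is read by Polycomb repressive complex 1. In progenitor cells it is known to lie over genes of other lineages, such as the Hox genes and other developmental regulators. It can form wide domains that cover whole genes, so the share of a gene's span that lies in peaks is a natural measure of it. EML cells grow as multipotent progenitors in stem cell factor, the ligand of the receptor Kit, and can be led to lymphoid, myeloid and erythroid cells.

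The sequences just before the starts of 6 genes are shown as examples, 5 from inside the mark and 1 from outside it. Each is the 250 bases before a transcript start, 5′ to 3′ on the strand of the gene, from RefSeq promoter windows on GRCm38.p6, whose chromosome coordinates are those of mm10. Capitals mark every CG pair, the CpG dinucleotide. Atoh8, Gata5 and Hoxb8 stand for developmental regulators, Krt73 and Krt2 for keratins and Myb for a progenitor regulator outside the mark. These 6 genes were chosen after their values were seen.
Atoh8: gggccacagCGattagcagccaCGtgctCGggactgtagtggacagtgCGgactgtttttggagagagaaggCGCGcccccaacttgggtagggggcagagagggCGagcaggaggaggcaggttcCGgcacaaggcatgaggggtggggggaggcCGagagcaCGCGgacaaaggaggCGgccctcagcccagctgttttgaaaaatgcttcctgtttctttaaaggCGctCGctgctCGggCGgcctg
Gata5: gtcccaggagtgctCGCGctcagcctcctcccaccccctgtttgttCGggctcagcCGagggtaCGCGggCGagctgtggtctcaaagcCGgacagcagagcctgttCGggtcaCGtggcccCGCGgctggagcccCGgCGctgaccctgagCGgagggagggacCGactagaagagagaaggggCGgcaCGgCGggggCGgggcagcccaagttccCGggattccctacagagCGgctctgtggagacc
Hoxb8: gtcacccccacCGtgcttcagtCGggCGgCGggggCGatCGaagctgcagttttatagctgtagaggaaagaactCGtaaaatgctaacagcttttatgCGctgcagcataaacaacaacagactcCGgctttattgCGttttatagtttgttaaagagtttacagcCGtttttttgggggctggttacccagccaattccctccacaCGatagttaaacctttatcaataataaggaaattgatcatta
Krt73: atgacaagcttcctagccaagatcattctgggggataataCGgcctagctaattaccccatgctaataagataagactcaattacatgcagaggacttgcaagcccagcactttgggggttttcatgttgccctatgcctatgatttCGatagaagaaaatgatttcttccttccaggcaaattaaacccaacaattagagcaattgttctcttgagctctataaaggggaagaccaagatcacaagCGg
Krt2: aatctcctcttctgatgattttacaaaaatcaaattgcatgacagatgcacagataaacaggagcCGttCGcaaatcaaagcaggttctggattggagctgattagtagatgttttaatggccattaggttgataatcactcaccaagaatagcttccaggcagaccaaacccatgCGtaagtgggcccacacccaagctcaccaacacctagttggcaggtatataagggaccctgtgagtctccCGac
Myb: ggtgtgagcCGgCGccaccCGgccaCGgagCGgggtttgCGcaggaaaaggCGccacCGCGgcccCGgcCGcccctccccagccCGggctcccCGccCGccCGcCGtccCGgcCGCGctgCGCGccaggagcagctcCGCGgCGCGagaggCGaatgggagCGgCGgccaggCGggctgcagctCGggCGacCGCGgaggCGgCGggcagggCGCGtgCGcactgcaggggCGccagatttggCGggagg
The Atoh8 sequence (chr6:72235578-72235827, minus strand) held 16 CpG pairs and the Gata5 sequence (chr2:180334680-180334929, minus strand) held 22. The Hoxb8 sequence (chr11:96281655-96281904, plus strand) held 12 at a GC content of 44.4%. The keratin sequences were poorer in CpG, with 3 pairs for Krt73 (chr15:101802361-101802610, minus strand) and 4 for Krt2 (chr15:101818170-101818419, minus strand). All 5 of these lay wholly in peaks of both replicates. The Myb sequence (chr10:21160985-21161234, minus strand) had the most CpG pairs of the 6, at 40, with a GC content of 81.2%, and no base of it lay in a peak of either replicate. Over all 21263 promoter windows the median number of CpG pairs before the start was 10 (quartiles 3 and 19). These examples do not stand for all promoters of their kind, since 13.1% of the 300 bp windows with 31 or more CpG pairs lay wholly in the mark, beside 12.0% of all windows.

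The replicates differed in how much of the genome they marked. Peaks covered 348.5 Mb in replicate 1 and 203.1 Mb in replicate 2, and 161.6 Mb lay in peaks of both. As a share of chromosomes 1 to 19, X and Y this was 12.8%, 7.46% and 5.94%. Most of the mark of replicate 2 lay inside that of replicate 1, as 79.6% of its bases were also in replicate 1 peaks, against 46.4% of replicate 1 bases in replicate 2 peaks. The deposited lists reach down to weak peaks, with p-values up to 0.0494 and 0.0495. Few peaks passed a q of 0.01, namely 6.13% in replicate 1 and 1.34% in replicate 2. The depth behind the lists is unknown, because the sources used here give no read totals, and its part in this difference was not tested. Gene results are therefore given for bases covered in both replicates, and for many genes and lists also for a single replicate.

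Wide peaks were found in both replicates and narrow ones often in a single replicate. Of the replicate 1 peaks, 117239 or 53.2% (95% Clopper-Pearson interval 53.0 to 53.4, which covers counting error only) overlapped a replicate 2 peak by at least 1 bp. Of the replicate 2 peaks, 147127 or 82.5% (82.3 to 82.6) overlapped a replicate 1 peak. The median width of overlapping peaks was 1374 bp in replicate 1 and 798 bp in replicate 2. Peaks of a single replicate had median widths of 525 and 407 bp. The log2 ratio of these medians was 1.39 and 0.97, with a mean of 1.18 ± 0.29 (SD, n = 2), so both replicates gave the same order. A wide peak meets another more easily than a narrow one, so the ratio describes the lists and does not measure reliability.

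The overlap grew with width until it reached 100% in the widest classes. Among replicate 1 peaks of at most 500 bp, 30.2% overlapped replicate 2, against 65.0% at 1000 to 2000 bp and 90.7% at 2000 to 5000 bp. In replicate 2 the shares of these classes were 71.2%, 95.2% and 99.7%. Above 10000 bp every peak of either list overlapped the other list. These were 2913 peaks of up to 20000 bp and 624 wider ones in replicate 1, and 608 and 51 in replicate 2. The fold enrichment of a peak is a value of the authors' peak caller, and the control behind it is not given in the sources used here. Its median in replicate 1 was 2.03 up to 500 bp, 1.96 at 500 to 1000 bp and 2.52 above 20000 bp. In replicate 2 these medians were 2.07, 2.02 and 2.35, so the widest peaks were slightly higher and the narrowest class was not the lowest. Peaks of at least 10 kb made up 16.2% of the covered bases in replicate 1 and 4.45% in replicate 2. The widest peak spanned 85216 bp in replicate 1 and 53705 bp in replicate 2.

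**Figure D1:**
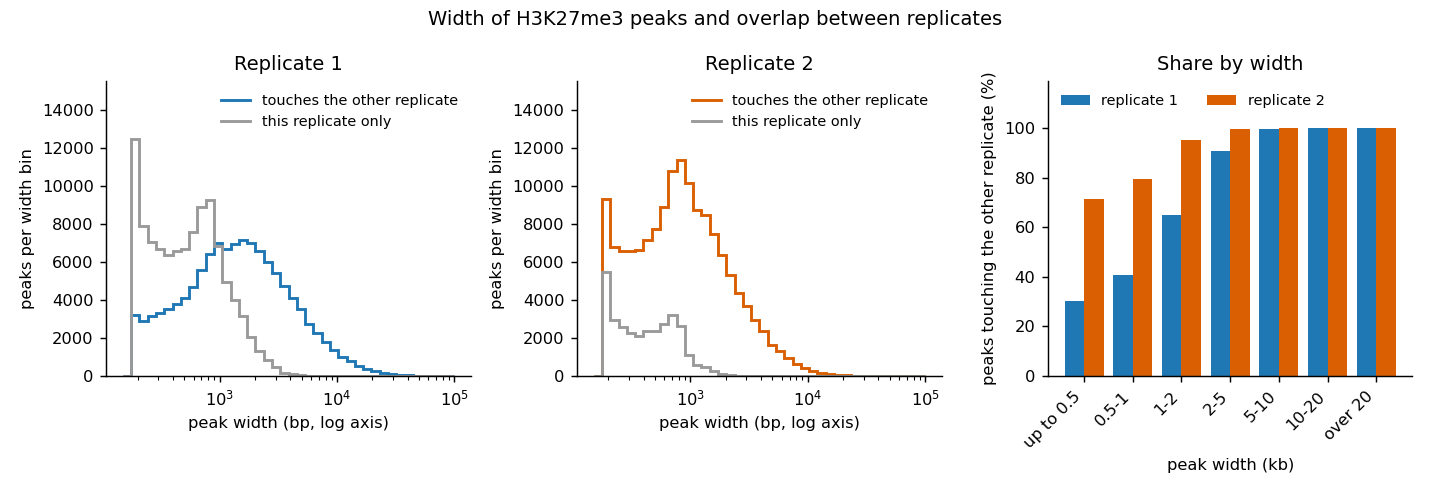
Peaks per width bin (width in bp on a log axis) in replicate 1 (left) and replicate 2 (middle), with coloured lines for peaks that overlap the other replicate and grey lines for peaks of that replicate alone, and the percentage of peaks that overlap the other replicate by width class (right; bars, blue for replicate 1 and orange for replicate 2). The grey lines end at 7870 and 3039 bp, and the bars reach 100% above 10 kb in both replicates.

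Most of the bases that only replicate 1 marked were extensions of shared peaks and not separate peaks. Of 186.9 Mb marked in replicate 1 alone, 117.7 Mb lay in peaks that overlapped replicate 2 and 69.2 Mb in peaks that did not. In replicate 2 these amounts were 26.2 and 15.3 Mb of 41.5 Mb. The widest peak without a partner in replicate 1 lay in Grik3, a glutamate receptor gene, and spanned 7870 bp at a fold of 1.89 and a q of 0.238. Next came peaks of 7550 bp in the polarity gene Dlg5, 7228 bp outside protein-coding genes, 6467 bp in the glycosyltransferase gene Galnt10 and 6331 bp in Prom2. In replicate 2 the widest without a partner were a 3039 bp peak in Dpp6 and a 3034 bp peak in Wwox. The q-values of these 7 peaks lay between 0.144 and 0.683, above the 0.01 that 13508 and 2384 peaks of the lists reached.

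The mark was spread unevenly over the chromosomes. On the autosomes 6.55% of the bases were covered in both replicates, with 14.1% in replicate 1 and 8.23% in replicate 2. On X the shares were 0.178%, 1.11% and 0.291%, and on Y they were 0.0033%, 0.0265% and 0.00964%. X held 2852 peaks in replicate 1 and 905 in replicate 2. The X peaks were about as high as those of autosomes, with median folds of 2.02 and 2.05 against 2.06 and 2.08. They were narrower, with median widths of 477 and 411 bp against 816 and 705 bp. Copy number, read depth and the share of bases where reads can be placed were not measured for X and Y. Their part in these differences was not tested. Protein-coding gene spans hold 37.9% of chromosome bases and held 48.1% of the bases marked in both replicates. Bases over 10 kb from such genes make up 52.7% of the chromosomes and made up 38.2% of the mark.

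The widest stretch marked without a gap in both replicates covered 4 HoxC genes. It ran over 53705 bp of chromosome 15 (102959561 to 103013265) and held Hoxc10, Hoxc9, Hoxc8 and Hoxc6 whole or in part. A stretch of 35025 bp on chromosome 11 (101870051 to 101905075) held Meox1, a homeobox gene of somite development. One of 34344 bp on chromosome 6 (72202835 to 72237178) held Atoh8, a basic helix-loop-helix gene. Next in width, 33356 bp on chromosome 11 (119549117 to 119582472) held no protein-coding gene, and 30387 bp on chromosome 1 (132186944 to 132217330) reached into Lemd1. Such stretches were rare. Of 153730 stretches marked in both replicates, with a median width of 597 bp, 544 spanned at least 10 kb and 134 at least 15 kb.

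Over genes, the mark covered at least 50% of the span of 1654 of 21887 protein-coding genes in both replicates (7.56%). A gene span runs from its first to its last annotated base, exons, introns and UTRs included. In replicate 1 alone 3544 genes (16.2%) reached 50%, and in replicate 2 alone 1923 genes (8.79%). A total of 7959 genes (36.4%) had any base covered in both, and 13928 had none. Around the threshold the numbers changed smoothly, with 553 genes at 40 to 50% and 494 at 50 to 60%. Across the 10108 genes touched in either replicate, which are not independent replicates, the covered percentages had a Spearman correlation of 0.832 and a Pearson correlation of 0.860. Of these, 8785 were more covered in replicate 1 and 1123 in replicate 2.

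**Figure D2:**
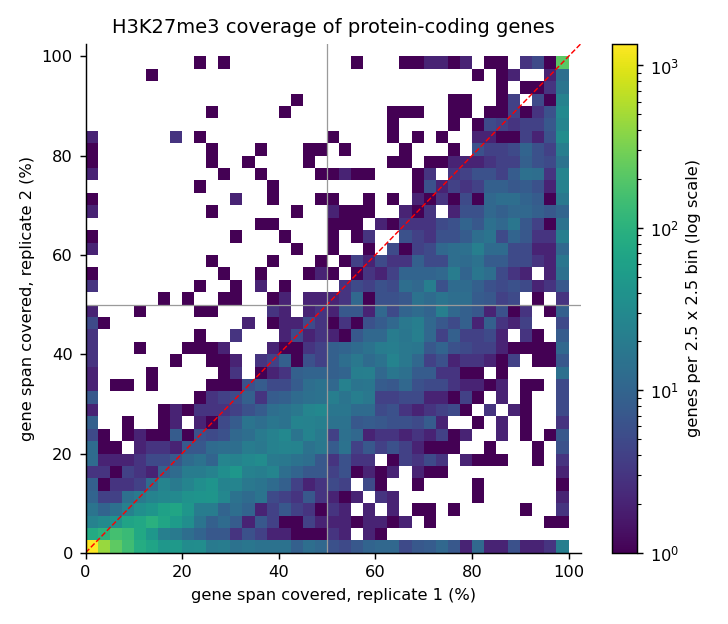
Percent of each gene span covered by H3K27me3 peaks in replicate 1 (horizontal axis) and replicate 2 (vertical axis) for protein-coding genes touched in either replicate, with colour giving the number of genes per bin on a log scale, grey lines at 50% and a dashed red line of equal coverage. Most of the 10108 genes lie below the line of equal coverage, 8785 of them more covered in replicate 1, and a column of genes at 100% in replicate 1 spreads over all values of replicate 2.

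The replicates disagreed strongly for some genes. C1s1, a complement protease gene, was covered over 99.0% of its span in replicate 1 and 19.7% in replicate 2. Lhx5, a forebrain homeobox gene, had 82.3% and 12.95%. Others among the 10 genes of at least 5 kb with the largest differences were Gzmn, Gip, Upk3a, Inhbb, Slc22a17, Edn2 and Btnl1, all higher in replicate 1. Btnl1 had 63.5% in replicate 1 and no base in replicate 2. Differences the other way were smaller, the largest among such genes being 39.8% against 72.3% in Rtp2. In all, 139 genes had at least 50% in replicate 1 and 0 in replicate 2, and 15 had the reverse.

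The mark covered 199 genes (0.909%) from end to end in both replicates. Most were short, with a median span of 2176 bp against 17169 bp for all genes. Among genes under 1 kb 3.49% were fully covered, and of the 2429 genes of 100 kb or more, 0 were. Span length thus moves with full coverage, and its part in the lists of genes below was not tested. The longest fully covered gene was Atoh8, of 29607 bp (chromosome 6, 72206174 to 72235780), at an average fold of 2.76 ± 0.32 over the peaks on it. Meox1 followed with 16845 bp (chromosome 11, 101877510 to 101894354) and Hoxc6 with 13657 bp (chromosome 15, 102998226 to 103011882).

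The other long genes covered whole came from many tissues. Dusp15, a phosphatase gene, spans 11406 bp on chromosome 2 (152940995 to 152952400). Gata5, a transcription factor gene of heart and gut, spans 10416 bp on the same chromosome (180325088 to 180335503). The aldehyde dehydrogenase gene Aldh3a1, known from the cornea, spans 9909 bp, and the neurexophilin gene Nxph4 9087 bp. Krt73, a hair follicle keratin gene, spans 9057 bp. Btnl4, Hoxb6, B9d1, Hoxc9, Alox12e, Spata31d1b and Cpne6 completed the 15 longest, with spans from 9019 down to 6991 bp. The folds of these peaks were modest, from 2.22 ± 0.23 over Aldh3a1 to 3.24 ± 0.57 over Nxph4 (SD, n = 2).

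Long genes were rarely covered over most of their span. Of the 2429 genes of at least 100 kb, 64 reached 50% in both replicates. Itsn1, which encodes an endocytic scaffold protein, led them with 85.5% of 191282 bp in both replicates, 96.1% in replicate 1 and 86.0% in replicate 2 (chromosome 16, 91729310 to 91920591). Tox2, an HMG-box gene, had 80.8% of 121115 bp, and the calcium-activated chloride channel gene Ano1 had 76.4% of 163478 bp. Rph3al, Plekha6 and Cacna2d2 had 76.0%, 75.7% and 75.4%. Kcnn3, a potassium channel gene, had 72.6%, and Nrxn2, a synaptic adhesion gene, had 72.1%. Shb had 69.9% of 107553 bp, and the neural adhesion gene Dscaml1 had 69.5% of 326281 bp. In all 10 the share was lower in replicate 2 than in replicate 1, by 8.07 percentage points in Tox2 and 21.5 in Shb.

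Marked genes lay beside marked genes. Of the genes covered over at least 50%, 35.8% were followed along the chromosome by another such gene, against 5.25% of the other genes. Runs of 3 or more consecutive genes, each at 50% or more, numbered 116 and held 502 genes, or 30.4% of the genes at that level. Neighbours can share a peak or overlap, and 68 of the 502 genes (13.5%) overlapped a neighbour, beside 17.5% of all genes. The runs spanned 11.1 to 639.7 kb with a median of 89.2 kb. Chromosome 11 held the most, 24 runs with 114 genes, and there 247 of 1609 genes (15.4%) reached 50%. Chromosome 15 followed in share with 114 of 776 genes (14.7%). On X the share was 4 of 966 genes (0.414%), namely Sowahd, Cited1, Kcne1l and LOC115489115, and on Y it was 0 of 256.

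The run with the most genes was the type II keratin cluster on chromosome 15 (101412403 to 101940324). Keratins are the intermediate filament proteins of epithelia, hair and nail. The run held 23 genes from Krt7 to Krt79, all keratins but Gm5414, and the neighbour Krt78 fell below the threshold at 36.8%. Krt73 and Krt1 were covered whole in both replicates, and Krt2, an upper epidermis keratin, over 98.3%. Krt6a and Krt6b, the keratins of stressed and wounded epidermis, had 94.7% and 93.9%. Krt5, the basal epidermis keratin, had 83.6% in replicate 1 and 67.6% in replicate 2. The lowest member was Krt88 at 53.3%. The DNA between the genes was marked too, as 58.2% of the whole run lay in both replicates, 80.9% in replicate 1 and 60.6% in replicate 2.

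The HoxB and HoxC clusters each formed a run, and the HoxC run had the highest folds of the 9 runs with the most genes. The HoxC run (chromosome 15, 102921131 to 103036856) held all 9 HoxC genes and was covered over 89.2% in both replicates, 96.0% in replicate 1 and 90.4% in replicate 2. Its average folds were 3.33 and 2.72. The HoxB run (chromosome 11, 96098916 to 96368254) held 12 genes, the 10 HoxB genes and the neighbours Calcoco2, an autophagy receptor gene, and Ttll6, a tubulin ligase gene. Calcoco2 had 90.5% and 54.2% in replicates 1 and 2, and Ttll6 93.2% and 71.4%. The run was covered over 73.4% in both replicates, at folds of 2.82 and 2.46.

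**Figure D3:**
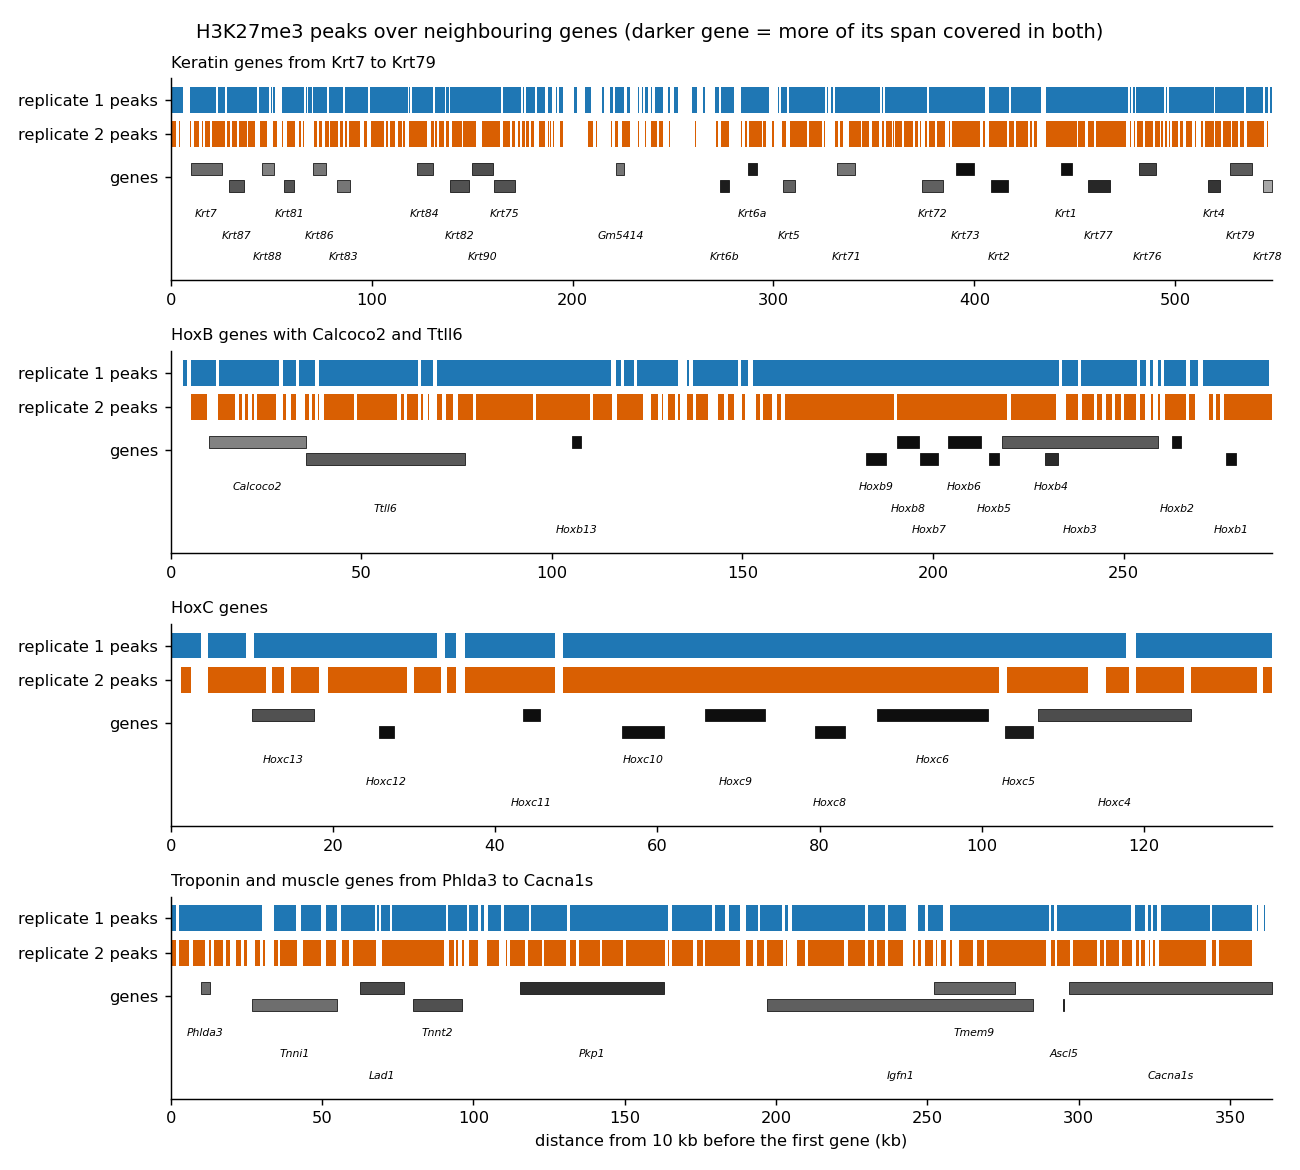
Peaks of replicate 1 (blue bars) and replicate 2 (orange bars) and protein-coding genes (boxes, darker where more of the span is covered in both replicates) over 4 runs of marked genes, drawn to scale against the distance in kb from 10 kb before the first gene. The keratin run is covered over 80.9% in replicate 1 and 60.6% in replicate 2, and 6 of the 9 HoxC genes are covered whole in both.

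A run on chromosome 1 (135766085 to 136119822) joined muscle and epithelial genes. Its 9 genes were Phlda3, Tnni1, Lad1, Tnnt2, Pkp1, Igfn1, Tmem9, Ascl5 and Cacna1s. Tnni1 and Tnnt2 encode troponin subunits of slow skeletal and cardiac muscle, and were covered over 61.7% and 75.7%. Cacna1s, the calcium channel of skeletal muscle, had 70.7% and Igfn1, another muscle gene, 69.1%. Pkp1 and Lad1, which serve attachment of epithelial cells, had 87.3% and 77.5%. Ascl5, a basic helix-loop-helix gene of 567 bp, lay wholly in the mark. Neither Phlda3 nor Tmem9 is a muscle gene, and they had 62.4% and 66.1%. Every gene of a run passes the coverage threshold by definition, so these values cannot show whether the mark depends on gene type.

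Other runs held serine protease, collagen and gene copy clusters. On chromosome 17 (25298394 to 25570686) the protease genes Prss34, Prss28, Prss29 and Tpsb2 were covered whole. In the same run the tryptase gene Tpsg1 had 80.9%, Sstr5, a somatostatin receptor gene, 79.4%, and Sox8 78.4%. Cacna1h and Tekt4 had 59.5% and 54.7%. On chromosome 11 (94755129 to 94976327) Col1a1, a chain of type I collagen, had 88.4%, and its neighbour Sgca, a muscle membrane gene, 87.5%. Hils1 and Gm11543 in this run were covered whole, while Tmem92, Gm11545, AA623943, Gm11544 and Gm11546 had 50.7 to 93.0%.

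A group of 3 further runs held near-identical gene copies, where reads are hard to place, so their values are uncertain. A run of 16 genes on chromosome 10 (77750371 to 77902536) held Krtap10-4, Krtap10-10, a row of predicted genes and Lrrc3, and 10 of them were covered whole. Its predicted genes were Gm9736, Gm3233, Gm3238, Gm7138, Gm3250, Gm7137, Gm9639, Gm19668, Gm9507, Gm2696, Gm36176, Gm10318 and Gm3285. A run of 12 genes on chromosome 4 (88760774 to 88803802) held the type I interferon gene Ifnz and the predicted genes Gm13283, Gm13290, Gm13289, Gm13272, Gm13276, Gm13277, Gm13278, Gm13275, Gm13279, Gm13285 and Gm13287, with 8 covered whole. Its folds were the lowest of the 9 runs, at 2.10 and 1.84. A run of 11 genes on chromosome 11 (99665043 to 99851605) held hair keratin-associated genes such as Krtap4-8 and Krtap4-9, both covered whole. Krtap4-6, Krtap4-13, Krtap4-16, 2300003K06Rik and 5 predicted genes had between 52.7% and 97.5%, and these predicted genes, Gm11595, Gm11596, Gm11569, Gm11554 and Gm11564, had at least 83.7%. Of this whole run 15.7% lay in both replicates, the lowest share of the 9 runs. Its genes entered the run by their own coverage, so their higher values cannot show that the mark favoured genes.

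The HoxB and HoxC clusters had the largest shares of the 42 gene lists. All 10 HoxB and all 9 HoxC genes were covered over at least 50% in both replicates, where 7.56% of all protein-coding genes were. Hox genes set position along the body axis. Hoxb8, Hoxb9, Hoxb7 and Hoxb6 and Hoxc6, Hoxc8, Hoxc9 and Hoxc10 were among the 8 HoxB and 6 HoxC genes covered whole. Hoxb3, which spans 40830 bp, had the lowest share of either cluster, at 70.6%, with 87.5% in replicate 1 and 70.7% in replicate 2. In all 4 Hox clusters the members lie side by side and share peaks, so they are not independent. With only the peaks that passed a q of 0.01, 4 HoxB and 6 HoxC genes still reached 50%.

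The HoxA and HoxD genes were covered in patches and less alike between replicates. Of 11 HoxA genes 5 reached 50% in both replicates, with a median of 46.5%, and of 9 HoxD genes 3 did, with a median of 34.0%. In replicate 1 alone these counts were 11 and 5, and with only the peaks that passed a q of 0.01 they were 0 and 0. Hoxa13 had 62.8% in both replicates. Hoxa9, a gene of early blood progenitors, was covered over 77.8% of its span in replicate 1 and wholly in replicate 2, and its neighbour Hoxa10 over 83.2% and 69.7%. Hoxa5 had 69.5% in replicate 1 and 0 in replicate 2. In HoxD, Hoxd12 was covered whole, Hoxd9 over 81.2%, Hoxd10 over 54.0% and Hoxd11 over 38.1%. Hoxd8 had 100% in replicate 1 and 5.75% in replicate 2, while Hoxd13 had 35.4% and 76.2%, and both genes were chosen after their values were seen. Hoxd4 had 13.4% and 0.

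Homeobox genes outside the Hox clusters and basic helix-loop-helix genes were covered more often than all genes. With all deposited peaks they were covered less often than keratins or kallikreins. Of 121 homeobox genes 48 (39.7%) reached 50%, 9 were covered whole and 25 had no base in both replicates. In replicate 1 alone 68 (56.2%) reached 50%, beside 16.2% of all genes. Meox1 and Dlx3, a gene of skin and tooth, were covered whole, as were Cdx2, which specifies gut, and Mnx1, which specifies motor neurons. At the other end Dbx2 and Alx1 had 0 in both, with 0.62% and 3.67% in replicate 1. Of 65 Gata, Zic, Gli and basic helix-loop-helix genes 24 (36.9%) reached 50% and 7 were covered whole, among them the neuronal gene Neurod2 and the heart gene Hand1. In replicate 1 alone 35 (53.8%) of this list reached 50%. The blood regulators Gata1 and Gata2 of the same list had no base in a peak of either replicate. With only the peaks that passed a q of 0.01, 3 genes of the first list and 4 of the second reached 50%, while no keratin or kallikrein gene did.

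Forkhead, Sox and T-box genes were covered less than these, with 10 of 79 (12.7%) at 50%, a median of 3.39% and 0 covered whole. A total of 21 of them reached 50% in replicate 1 alone. Foxd4 had 98.8%, Foxf1, a gene of lung and gut mesenchyme, 88.9%, Foxi1 80.6% and Sox8, a neural crest gene, 78.4%. Foxp1 and Foxo3 had no base in peaks of either replicate, and Foxn3 had 0.06% and 0.1%.

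Ligands of developmental signals were covered more than their receptors. Of 76 Wnt, Fgf, Bmp, Gdf, hedgehog and Tgfb ligand genes 18 (23.7%) reached 50% in both replicates, with a median of 15.7%. In replicate 1 alone 29 did, and 1 did with only the peaks that passed a q of 0.01. Wnt1 was covered whole, Wnt3a over 87.4%, Fgf15, the gut hormone that restrains bile acid synthesis, over 83.4%, and Wnt3 over 80.0%. Of 34 frizzled, Fgf, Bmp, Tgfb and patched receptor genes 0 reached 50%, while replicate 1 alone had 5. The highest were Ror2, a Wnt receptor, with 42.5%, Fgfr3 with 34.3%, Smo with 30.9% and Fgfr4 with 24.95%. Receptor genes were also longer, with a median span of 48763 bp against 15022.5 bp for ligands, and the part of length in this difference was not tested.

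Genes of nerve and muscle were often covered in part. Of 132 potassium, sodium and calcium channel genes 34 (25.8%) reached 50% and 17 had no base in both replicates. In replicate 1 alone 53 reached 50%, and 1 did with only the peaks that passed a q of 0.01. Scn4b, a sodium channel subunit, had 95.1%, and the potassium channel genes Kcnk3 and Kcne2 had 89.7% and 87.8%. Of 71 semaphorin, plexin, ephrin, Eph, netrin, Slit and Robo genes, which guide axons, 10 (14.1%) reached 50%, led by Epha8 with 82.7% and Sema3f with 82.1%, while replicate 1 alone had 23. Of 47 glutamate and GABA receptor genes 1 did, Gabrd with 72.6%, although 9 did in replicate 1 alone and 39 had some base in both. Some base in both replicates lay in 87.1% of the channel and 83.0% of the glutamate and GABA receptor genes, beside 36.4% of all genes. The median span of the glutamate and GABA receptor genes was 183348 bp. Of all genes of 100 kb or more 34.7% had no base in both, and the part of length was not tested. Among 32 cadherin genes 3 reached 50%, namely Cdh22, Cdh16 and Fat2 with 53.2 to 57.0%, and among 69 protocadherin genes 1 did, where replicate 1 alone had 9 and 8.

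Epithelial and matrix families were widely marked. Of 49 keratin genes 32 (65.3%) reached 50% and every one had some base in both replicates. In single replicates 46 and 39 did, but with only the peaks that passed a q of 0.01 the count was 0. Apart from Krt73 and Krt1, the genes Krt34, a hair keratin, and Krt15, a basal layer keratin on chromosome 11, were covered whole. Of 56 keratin-associated protein genes, which encode hair proteins, 24 reached 50%, 5 were covered whole and 20 had none. In replicate 1 alone 34 reached 50%, and 11 did with only the peaks that passed a q of 0.01. Krtap5-5, Krtap4-9, Krtap17-1 and Krtap5-1 were whole, while Krtap29-1 had 88.2% in replicate 1 and 0 in replicate 2. The late cornified envelope and small proline-rich genes of the outer epidermis differed from the keratins, with 1 of 35 at 50%, Lce3f at 74.1%, and 8 in replicate 1 alone. Of 27 kallikrein genes, which encode serine proteases, 13 reached 50% and all had some base in both, with Klk1b5 at 93.2%. The kallikrein count was 24 in replicate 1 alone, and 0 with only the peaks that passed a q of 0.01. Of 44 collagen genes 11 reached 50%, 19 in replicate 1 alone and 0 at that q, led by Col1a1 with 88.4%, Col16a1 with 78.0%, the cartilage collagen Col2a1 with 69.5% and Col5a1 with 66.6%.

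**Figure D4:**
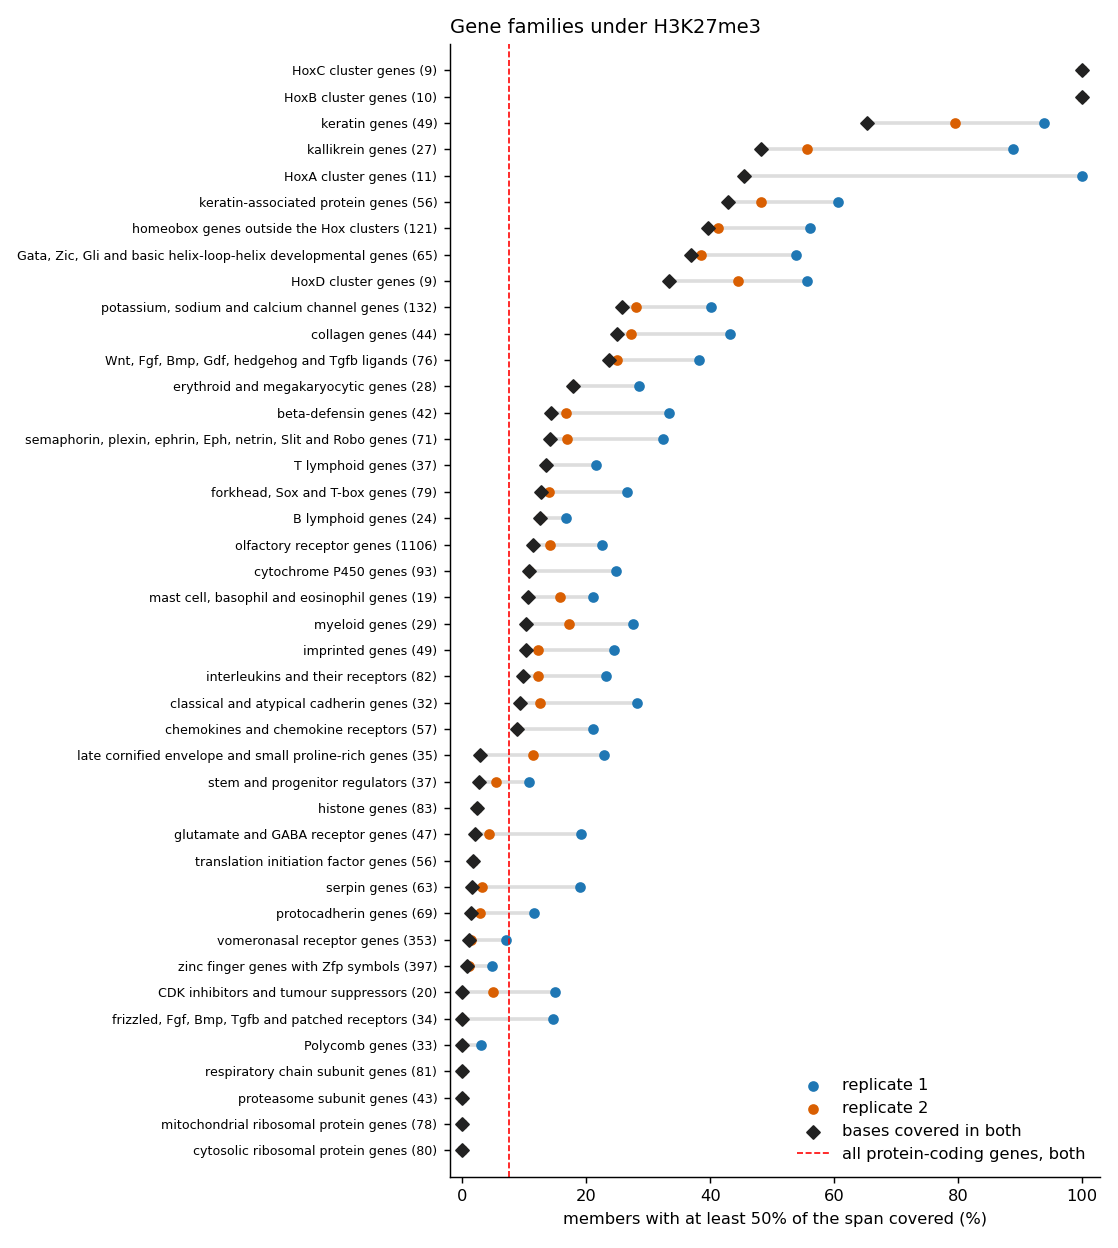
Percentage of the members of 42 gene lists (rows, with the number of members in brackets) that have at least 50% of their span in peaks of replicate 1 (blue), of replicate 2 (orange) or in bases covered by both (black diamonds), with a dashed red line at 7.56%, the share among all protein-coding genes. HoxB and HoxC stand at 100%, 26 lists lie above the line and 7 at 0, and replicate 1 lies at or to the right of the diamonds in every row.

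Most chemosensory receptor genes were bare, as were 63.6% of all protein-coding genes. Of 1106 olfactory receptor genes 850 had no base in both replicates, 127 (11.5%) reached 50% and 129 were covered below 50%. Their median span was 950 bp. Of all 1576 genes under 1 kb, 80.8% had no base in both replicates and 12.4% reached 50%. By their median span, olfactory genes make up a large part of that class. The nearness of these shares thus cannot show whether olfactory genes resemble other short genes. Counting replicate 1 alone, 250 reached 50%, and 2 did with only the peaks that passed a q of 0.01. Olfr225, Olfr12, Olfr1413 and Olfr313 were covered whole, and 8 olfactory genes from Olfr1416 to Olfr12 formed a run on chromosome 1 (92479681 to 92621001). Of 353 vomeronasal receptor genes 4 reached 50%, Vmn1r49 highest with 74.6%, and 25 did in replicate 1 alone. Both families have close copies, so reads may be misplaced between members.

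Genes that every cell uses were nearly free of the mark, where 63.6% of all protein-coding genes had no base in both replicates. None of the 80 cytosolic ribosomal protein genes had a base in peaks of both replicates, such as Rps15a, Rpl22 and Rpl5. Of 78 mitochondrial ribosomal genes 77, of 43 proteasome genes 42 and of 81 respiratory chain genes 80 were also bare. The exceptions were slight, at 2.99% in Mrpl23 and 0.34% in Cox7b2, the latter a testis form, and 9.11% in the testis proteasome gene Psma8. Of 83 histone genes 80 were bare, while H2bu2 was covered whole and H2bl1 over 76.9%. Histone genes are short, with a median span of 502 bp, and 80.8% of all genes under 1 kb were bare. Of 56 translation initiation factor genes 52 were bare, and 1, the germ cell gene Eif4e1b, was covered whole. Zinc finger genes with Zfp symbols had 3 of 397 (0.756%) at 50%, beside 7.56% of all genes. In replicate 1 alone 19 (4.79%) reached 50%, beside 16.2% of all genes.

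Genes known to define blood progenitors mostly lay outside the mark, as did most genes. Of 37 stem and progenitor regulators 10 (27.03%) had some base in both replicates, beside 36.4% of all protein-coding genes, and 27 had none. The files hold no RNA, so their expression was not measured. The 27 included the stem cell factor receptor gene Kit, the surface marker gene Cd34, and the transcription factor genes Gata2, Tal1, Meis1, Lyl1, Spi1 and Myb, of which Kit alone had any base in a single replicate (0.28% in replicate 1). Runx1, Etv6 and Ikzf2 were bare too. A single member reached 50% in both, Mycn with 55.8% in replicate 1 and 51.3% in replicate 2, while 4 members did in replicate 1 alone. Prdm16, a stem cell regulator, had 74.4% and 51.7%, and Bcl11a, which acts in B lymphoid and erythroid cells, had 77.5% and 47.7%. Procr had 48.9% in replicate 1 and 0 in replicate 2.

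Lymphoid genes were marked in part. Of 37 T lymphoid genes 5 (13.5%) reached 50%, beside 7.56% of all protein-coding genes, and 15 had none, with a median of 5.00%. Replicate 1 alone had 8 (21.6%) at 50%, beside 16.2% of all genes. Cd3e, a subunit of the T cell receptor complex, had 100% in replicate 1 and 95.04% in replicate 2, and its neighbour Cd3g 68.6% and 45.4%. Cd3d, the third gene of that locus, had 20.4% and 0. Hes1, a Notch target, was covered whole in both, Thy1 over 69.0%, Cd2 over 56.9% and Dtx1 over 55.1%. Il7r, Cd247 and Cd28 had no base in either replicate. Of 24 B lymphoid genes 3 (12.5%) reached 50%, beside 7.56% of all genes. Replicate 1 alone had 4 (16.7%) at 50%, close to the 16.2% of all genes. The 3 were the surface receptor gene Cd22 with 76.4%, Irf4 with 60.8% and Pax5, the master regulator of B cells, with 54.5%. Ebf1 had 4.57%, and Cd79a, Cd79b, Vpreb1 and Igll1 had none.

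Myeloid and erythroid genes showed the same mixture within single gene families. Of 29 myeloid genes 3 (10.3%) reached 50%, beside 7.56% of all protein-coding genes, and 8 (27.6%) in replicate 1 alone, beside 16.2%. Among the 3 was Irf8, which directs monocyte and dendritic cell fate, with 96.0% in replicate 1 and 85.1% in replicate 2. Klf4 had 58.8% and 55.8%. Csf1r and Mpo had none in either replicate, whereas Elane, the neutrophil elastase gene, had 84.4% and 29.0%. Of 28 erythroid and megakaryocytic genes 5 (17.9%) reached 50%, 8 (28.6%) in replicate 1 alone, and 17 had none. Some base in both replicates lay in 39.3% of this list, beside 36.4% of all genes. Hba-a1 and Hba-a2, the adult alpha globin genes, were covered whole in both replicates, while the adult beta globin genes Hbb-bs and Hbb-bt had none. The alpha globin copies are near-identical, so reads cannot be split reliably between them. The membrane skeleton genes Slc4a1, Ank1 and Sptb had 66.2%, 55.7% and 55.0%, while Gata1, Klf1 and Epor had none. Of 19 mast cell, basophil and eosinophil genes 2 (10.5%) reached 50%, the tryptase gene Tpsb2 at 100% and Ear1 at 99.5%. In replicate 1 alone 4 (21.1%) did, and Cpa3, Hdc and Ms4a2 had none.

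Chemokine, interleukin and receptor genes lay near the background. Of 57 chemokine and chemokine receptor genes 5 (8.77%) reached 50%, with Ccl21a covered whole and Cxcl12, the stromal ligand that holds stem cells in marrow, at 75.5%. Of 82 interleukin and receptor genes 8 (9.76%) did, with Il24, Il9 and Il1f10 covered whole. These shares stand beside 7.56% for all genes, and in replicate 1 alone they were 21.1% and 23.2%, beside 16.2%.

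The genes of the Polycomb machinery were themselves mostly bare. Of 33 Polycomb genes 4 (12.1%) had some base in both replicates, beside 36.4% of all genes, and 29 had none, among them Ezh2, Ezh1, Eed, Suz12, Rnf2 and Jarid2. Phf19, an accessory subunit of complex 2, had 63.2% in replicate 1 and 38.4% in replicate 2, and Cbx7, a reader subunit of complex 1, 48.3% and 26.7%. Bmi1 had 3.96% and 8.61%. Of 20 cell cycle inhibitor and tumour suppressor genes 0 reached 50%, beside 7.56% of all genes, and 3 (15%) did in replicate 1 alone, beside 16.2%. Some base in both replicates lay in 40% of them, beside 36.4% of all genes. Cdkn2b and Cdkn2a, classical Polycomb targets, had 31.1% and 17.97%, with 51.7% and 41.8% in replicate 1. Trp73 was highest with 48.8%, and Nf1, Rb1 and Trp53 had none.

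At gene starts the mark formed a narrow rise above its near surroundings. Promoter windows of 300 bp, 250 before and 50 after a transcript start, lay wholly in peaks of both replicates for 2561 of 21263 windows (12.0%). A window was called CpG-rich at an observed to expected CpG ratio of at least 0.6 and a GC content of at least 50%. Of 9600 CpG-rich windows 10.9% lay in the mark, and of 11663 CpG-poor windows 13.02%. This order depended on the weak peaks. With only the peaks that passed a q of 0.01 the shares were 3.33% for CpG-rich and 1.02% for CpG-poor windows, and with the 50000 strongest peaks of each list they were 8.53% and 7.69%. With replicate 1 alone they were 15.6% and 22.3%, and with replicate 2 alone 11.5% and 14.6%.

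The surroundings of both classes differed. In the 500 bp after CpG-rich starts 14.1% of bases lay in both replicates, against 5.90% in the bin 5 kb downstream and 8.02% in the bin 5 kb upstream. After CpG-poor starts the values were 19.4%, 10.1% and 8.33%. In the bin 20 kb upstream 9.39% of bases of CpG-rich and 8.68% of CpG-poor starts lay in both replicates. The rise depended on the replicate and the distance. In replicate 1 alone CpG-rich starts had 18.9% after the start and 17.7% in the bin 20 kb upstream, and CpG-poor starts 29.6% and 16.6%. Coverage also moved with base composition. Of windows under 35% GC 0.517% lay in the mark, of those at 40 to 45% GC 5.27%, at 50 to 55% 14.5%, at 60 to 65% 12.8%, at 65 to 70% 14.1% and at 70% or more 17.2%. The shares thus did not rise with every class of GC content. Base composition can affect sequencing libraries, and its part in these shares was not tested.

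**Figure D5:**
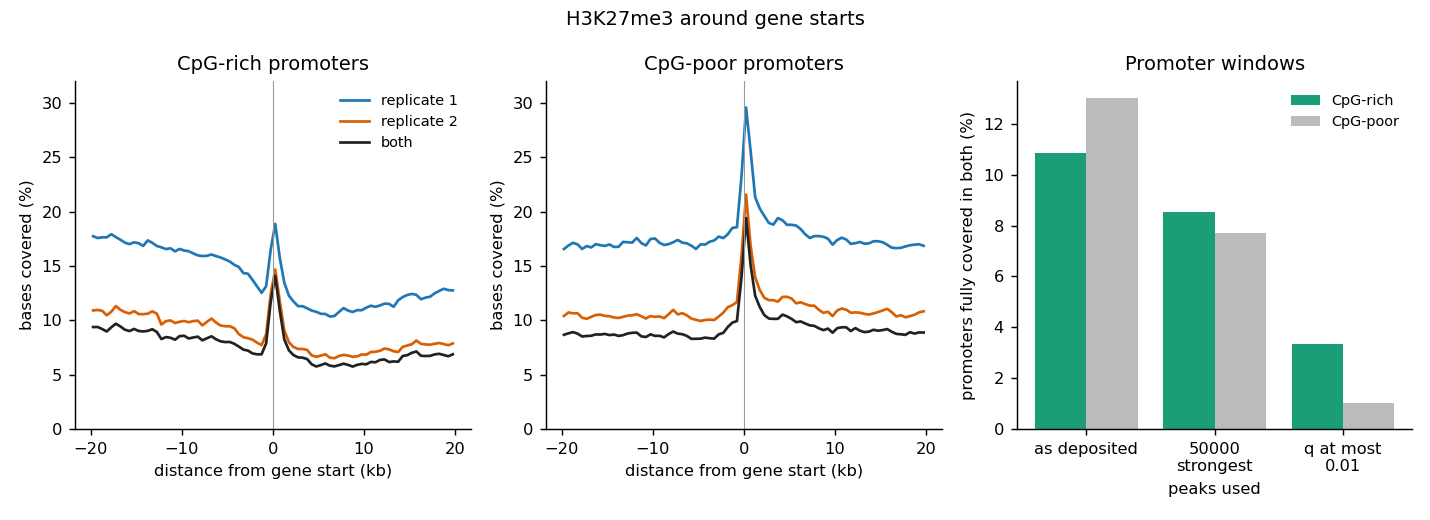
Percentage of bases in peaks of replicate 1 (blue), replicate 2 (orange) and both (black) in 500 bp bins up to 20 kb from transcript starts, for CpG-rich (left) and CpG-poor promoters (middle), with positive distances in the direction of transcription, and the percentage of 300 bp promoter windows wholly covered in both replicates under 3 selections of peaks (right; bars from 0). All lines peak at the start, and the order of CpG-rich and CpG-poor bars changes from 10.9% and 13.02% as deposited to 3.33% and 1.02% at a q of at most 0.01.

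A marked promoter and a marked gene body often went together but not always. Of 1256 genes with a promoter window and at least 50% of the span covered, 746 (59.4%) had their outermost window wholly in the mark, 72.8% of the CpG-rich and 54.2% of the CpG-poor ones. Conversely, 731 of 2034 genes with a marked outermost window (35.9%) had less than 25% of the span covered. The families differed in promoter type as well. Of 35 keratin genes with a window 2 were CpG-rich and 20 had the promoter in the mark, while of 86 homeobox genes outside the Hox clusters 53 were CpG-rich and 27 had it in the mark. Of 28 stem and progenitor regulators 18 were CpG-rich and 3 (10.7%) had it in the mark, close to the 11.6% of all genes with a promoter window.

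The mark also held microRNA genes. Among 1005 RefSeq hairpins, 92 (9.15%) lay wholly in peaks of both replicates, 173 in replicate 1 and 101 in replicate 2, and 902 had no base in both. Hairpins are short, so the call rests on single peaks, and those named here were chosen after their values were seen. The mature sequences of 8 arms are shown 5′ to 3′ to set out which shared a seed, with the seed, bases 2 to 8, in capitals.
miR-196a-5p: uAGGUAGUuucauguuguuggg
miR-196b-5p: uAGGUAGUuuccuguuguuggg
miR-10a-5p: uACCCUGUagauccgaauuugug
miR-9-5p: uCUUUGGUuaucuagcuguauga
miR-183-5p: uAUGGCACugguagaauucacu
miR-96-5p: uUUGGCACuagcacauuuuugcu
miR-208a-3p: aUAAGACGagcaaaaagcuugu
miR-208b-3p: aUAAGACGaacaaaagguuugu
The 3 genes of the miR-196 seed family lie in different Hox clusters, and each was covered whole in both replicates. Mir196a-1 (chr11:96265164-96265265) lies between Hoxb13 and Hoxb9, with folds of 3.18 and 2.66. Mir196a-2 (chr15:102973350-102973434) lies between Hoxc10 and Hoxc9, with folds of 3.43 and 2.78. Mir196b (chr6:52230081-52230165) lies between Hoxa9 and Hoxa10, with folds of 2.76 and 2.61, so the mark was present at this site of the patchily covered HoxA cluster. Mir10a (chr11:96317165-96317274) lies inside the span of Hoxb3, with folds of 3.18 and 2.41. Mir10b, its relative in HoxD (chr2:74726070-74726137), had no base in either replicate.

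The other hairpins shown are known from nerve, sense organs and heart. Mir9-1 and Mir9-3, which give the same mature miR-9-5p known from neural progenitors, were covered whole on chromosomes 3 and 7. Mir183 and Mir96, neighbours on chromosome 6 known from hair cells and photoreceptors, lay in the same peaks. Mir208a and Mir208b, which share a seed, lie inside the cardiac myosin genes Myh6 and Myh7, which were covered over 77.4% and 78.0% in both replicates.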

How the data were processed

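Chromatin from EML_C1 cells was immunoprecipitated with an H3K27me3 antibody in 2 replicates, with fragments of 200 to 500 bp per the labels' protocols. The tools named in the submitters' processing notes, without roles or parameters, are MACS2 2.0.10, Bowtie2 2.2.1, SAMtools and Picard, with mm10 as build. The authors deposited 1 broad peak list per replicate, not pooled. Each deposited peak has a fold enrichment, a linear ratio, and -log10 p and q values. The deposited score was not used. The lists run to p-values near 0.05, and no read totals were at hand.

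Analyses ran in Python 3.11.15 with numpy 2.4.6, pandas 2.3.3, SciPy 1.17.1 and matplotlib 3.10.9. Peaks were matched at an overlap of 1 bp. Gene coverage is the percent of the span lying in peaks of both replicates, over 21887 protein-coding genes of a RefSeq table (GRCm38.p6). The average fold of a gene or run weights its peaks by covered bases. Chromosome length was taken as the last base of any peak or gene. Interval arithmetic was tested on simulated data. With 1 group of 2 replicates no test between groups was made, so there are no p-values of comparisons. The 42 gene lists, the members and the rules were chosen with earlier results of these data known. Of the listed names, 6 did not match the gene table.

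Named genes were, per list, up to 4 with the highest coverage in both replicates (ties by longer span) and up to 3 at 0, longest first. To these came the 15 longest fully covered genes, all genes of the 8 runs with the most genes, and the 10 most covered genes of 100 kb or more. The 5 widest stretches and 5 widest single-replicate peaks, and the 10 genes of 5 kb or more that differed most between replicates, were also named. For symbol families of 10 or more genes, the 10 highest and 10 lowest medians were chosen. Every stem and progenitor and Polycomb gene could be named. The HoxC run, next in number of genes, was added to the 8 after its values were seen, and so were all other genes named. Some genes that these rules select are not reported here.

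Alternatives used peaks with a q or p of at most 0.01, the 50000 strongest peaks of each list, peaks joined over gaps of up to 1 kb, larger overlaps, other coverage thresholds and each replicate alone.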

Additional observations from a re-analysis of the deposited data

How the results depend on the processing

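The deposited lists hold many weak peaks, and the choice of peaks moved most counts. With a q of at most 0.01, which kept 13508 and 2384 peaks, 11.7% of replicate 1 and 67.7% of replicate 2 peaks overlapped the other list, the log2 width ratio was 1.68, and 0.133% of the chromosomes lay in both. That setting left 89 genes at 50% or more, 35 genes covered whole and 4 runs, and all 89 genes were among the 1654. With a p of at most 0.01 the overlaps were 44.7% and 81.3% and the width ratio 1.59. With the 50000 strongest peaks they were 45.2%, 56.1% and 1.72, with 807 genes at 50% and 47 runs. Joining gaps of up to 1 kb gave overlaps of 52.7% and 81.3% and 357 genes covered whole. Requiring an overlap over at least 50% of a peak gave 31.1% and 70.7% and a width ratio of 0.54. With 75% of the span as threshold, 614 genes and 30 runs were left. With each replicate alone the covered share ranged from 7.46 to 12.8%, genes at 50% from 1923 to 3544, genes covered whole from 220 to 631 and runs from 138 to 342. These settings were computed on fewer or more peaks or bases by construction.

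The difference of CpG-poor minus CpG-rich promoters, an alternative added after seeing the data, was 2.17 percentage points as deposited. It was -2.31 with a q of at most 0.01 and -0.84 with the 50000 strongest peaks, and ranged from 3.10 to 6.66 with each replicate alone. The cause was not tested. Of the 42 lists, 12 still had a member at 50% with a q of at most 0.01 and 28 with the 50000 strongest peaks. HoxC kept 6 genes, HoxB 4 and the keratin-associated list 11 at that q, while the keratins had 0 and, with the 50000 strongest peaks, 23. No paired analysis was possible because no result comes from a test between groups.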

Other observations

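Imprinted genes, which are expressed from 1 parental allele, were covered unevenly. Of 49 such genes 5 (10.2%) reached 50% in both replicates, beside 7.56% of all genes, and 20 had no base in both. In replicate 1 alone 12 (24.5%) reached 50%, beside 16.2% of all genes. Igf2r, on chromosome 17 (12682406 to 12769706), was covered over 97.8% of its span in replicate 1 and 88.2% in replicate 2. The other 4 of the 5, the insulin gene Ins2 (100% in both), Th (88.7%), Ascl2 (77.1%) and Kcnq1 (53.9%), lie on chromosome 7. Dio3 had 81.4% in replicate 1 and 0 in replicate 2, and Mkrn3 59.6% and 0. Both were chosen after their values were seen. Peaks carry no allele, so the parental copy was not measured.

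Grouping all protein-coding genes by the letters of their symbols gave 283 families of 10 or more genes. Of these, 184 had a median of 0, 124 had no member at 50% and 22 had no base in both replicates in any member, such as the 53 Rpl, 29 Mrps, 28 Polr and 21 Nup genes. The highest medians were 100% for Hoxb, 74.2% for Ifna, 63.3% for Krt, 62.0% for the apolipoprotein L family Apol and 56.2% for Wnt. Lcn (51.0%), Klk (50.3%), Hoxa (46.5%), Krtap (44.6%) and Nkx (43.1%) followed. The Apol family owed this to 10 of 12 members at 50%, 8 of them in a run on chromosome 15 (77476953 to 77757062). The 13 Ifna genes have close copies, with a median span of 573 bp, so their coverage is uncertain.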
